A study of Caenorhabditis elegans with 83 samples.

Results

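The mitochondrial carrier genes of Caenorhabditis elegans were followed through CUT&RUN profiles of 3 chromatin proteins: HCF-1, HDA-1 and SET-26. Members were the protein-coding genes whose symbol begins with slc-25A or ant-1, together with ucp-4 and misc-1. This rule gave 17 of the 19985 protein-coding genes of WBcel235, 15 by their symbol in Ensembl and 2, slc-25A37 and slc-25A51, by their RefSeq symbol alone. Ensembl lists slc-25A37 as mfn-1 (W02B12.9, WBGene00012204) and slc-25A51 only as T20D3.5 (WBGene00011858). A carrier was called bound in a peak list when a peak touched, by at least 1 bp, the stretch between 2000 bp before its annotated start and 500 bp after it, here called its window. The members were chosen by symbol and not by any measured value, but with earlier results of these data known.

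CUT&RUN uses an antibody to direct a nuclease to a chromatin protein, so that the DNA next to the protein is cut out and sequenced. The 83 samples were day 1 adults grown for about 48 h at 25 °C, in 41 groups, 40 of 2 replicates and 1, the HA background in wild type, of 3 libraries, a first replicate for the SET-26 profile, another first replicate for the HDA-1 profile and 1 second replicate. All strains carried the tag at the endogenous gene, as set-26::ha (rwIs27), hcf-1::gfp::3xflag (rwIs33) or hda-1::gfp::ha (syb5185), except for the untagged N2 and glp-1(e2141) worms that gave the antibody background. Whole worms were the tagged strains on OP50 bacteria or on L4440, the empty RNAi vector. Germline-less worms carried glp-1(e2141) on OP50 or were fed glp-1 RNAi. HCF-1 and HDA-1 were also profiled in the set-26(tm2467) mutant, and SET-26 and HDA-1 in the hcf-1(pk924) mutant, on L4440 and on glp-1 RNAi. HCF-1 was in addition profiled in set-26(tm2467) with glp-1(e2141) on OP50.

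The study called peaks on the merged replicates of a group, which left 22 peak lists, 13 without a set-26 or hcf-1 mutation and 9 from mutants. In 6 lists, those of wild type and glp-1(e2141) on OP50, the control library was the tag antibody in untagged worms. In the other 16 it was histone H3 in the same strain, and HCF-1 in glp-1(e2141) was called against both controls. Merged libraries held 27.6 to 71.5 M tags for a factor and 27.1 to 85.6 M for a control, and the lists held 1267 to 13422 peaks. Because replicates were merged, no value below has a replicate error and no difference was tested across replicates. Each fold enrichment is the peak caller's ratio of the fragment pileup at the highest summit in the window to its local background. The highest summit is the one with the highest −log10 q-value, so another summit in the window can have a higher fold. Each fold has a 95% exact Poisson interval that covers counting error of the pileup only. Duplicate reads were kept, so the fragments may not be independent and these intervals may be too narrow. A peak list cannot show whether set-26 or hcf-1 was deleted in the labelled mutants, since it holds no level of either gene.

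Mitochondrial carriers are membrane proteins, nearly all of the inner membrane, that exchange nucleotides, cofactors, organic acids, amino acids and ions between the matrix and the cytosol. ADP/ATP translocases, among the most abundant of them, export the ATP made by oxidative phosphorylation and bring ADP back in. SET-26 is related to mammalian MLL5 and binds chromatin at active promoters, HCF-1 is the worm form of host cell factor, which joins transcription factors to chromatin modifying enzymes, and HDA-1 removes acetyl groups from histones. All 3 proteins have been tied to lifespan in worms.

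SET-26 was the factor found at most carriers. It bound 12 of 17 carriers in wild type worms, where 36.7% of all protein-coding genes were bound, 12 on L4440 (34.6% of genes), 12 in glp-1(e2141) (38.7%) and 13 on glp-1 RNAi (38.7%). HCF-1 bound 10 carriers in wild type (31.3% of genes) and 10 on L4440 (29.6%). In glp-1(e2141) it bound 10 against the antibody background (37.2% of genes) and 11 against H3 (43.8%), and on glp-1 RNAi it bound 10 (38.2%). HDA-1 bound 9 in wild type (29.9% of genes), 11 on L4440 (29.7%), 10 in glp-1(e2141) (40.5%) and 12 on glp-1 RNAi (40.1%). Over the 6 lists against antibody background, 63 of 102 carrier windows held a peak, or 61.8% with an exact Clopper-Pearson 95% interval of 51.6% to 71.2%, beside 35.7% of the windows of all genes. The windows of 1 gene recur in each list and are not independent, so the interval is a description.

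Other gene lists for the same organelle and the same protein class stood on both sides of the carriers. Of 66 genes for subunits of oxidative phosphorylation, which builds and uses the proton gradient, 59.1% to 97.0% were bound in the 13 lists without mutation. Of 15 other genes for mitochondrial membrane transport, such as vdac-1, the pyruvate carrier genes and the calcium uniporter, 53.3% to 80.0% were bound. Of 22 solute carrier genes outside family 25, 27.3% to 63.6% were bound. In the SET-26 lists the carriers lay between the oxidative phosphorylation genes and the other solute carriers, at 70.6% to 76.5%. The median fold of the bound carriers, 4.42 for SET-26 in glp-1(e2141), was also below the 8.24 of the oxidative phosphorylation genes. It was nearer to the 3.73 of all bound genes. For HDA-1 the order varied, with 3.52 for the carriers against 3.03 in glp-1(e2141) but 2.29 against 2.7 in wild type.

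**Figure D1:**
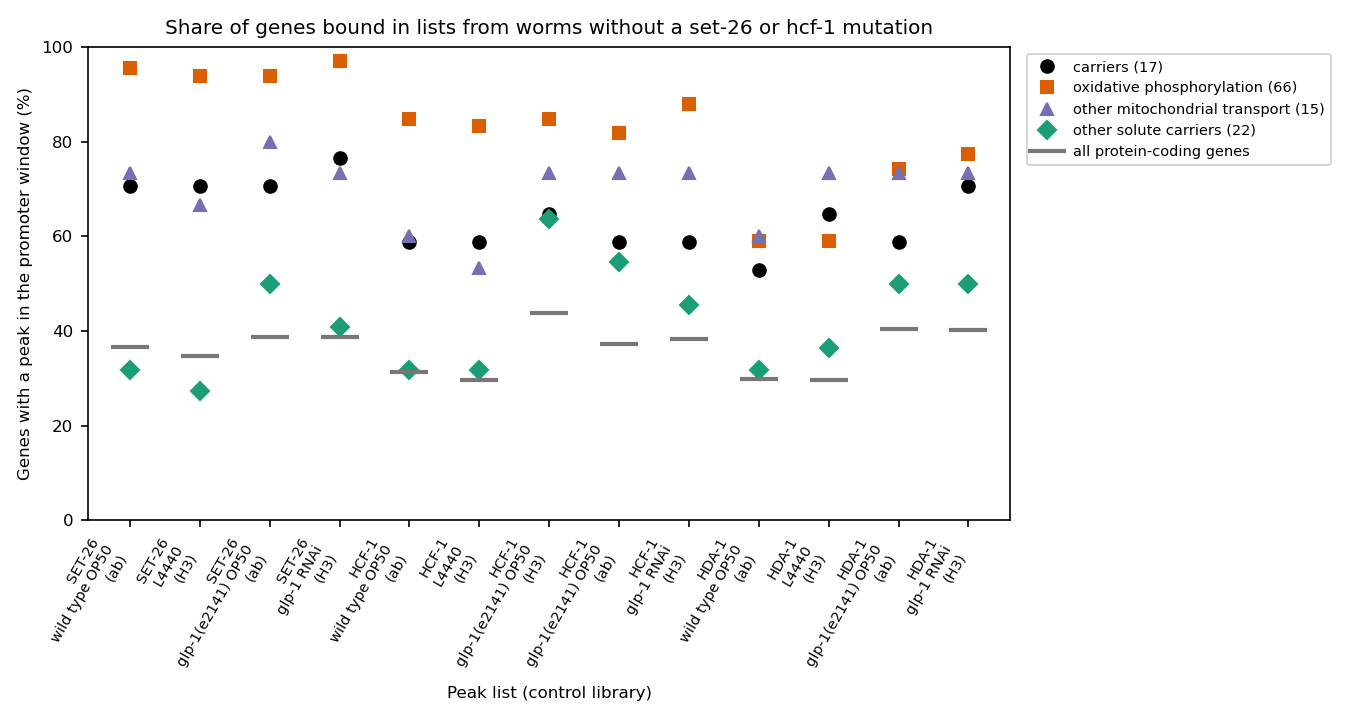
The share of genes with a peak in the promoter window (vertical axis, percent) is plotted for each of the 13 lists without a set-26 or hcf-1 mutation (horizontal axis, factor, condition and control library), with 1 symbol for each gene list and a grey bar for all 19985 protein-coding genes. The carriers (black circles) lie above the grey bar in all 13 lists, and in the 4 SET-26 lists they lie below the oxidative phosphorylation genes.

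The factors did not choose the same carriers each time, but their sets overlapped widely. SET-26 bound 11 carriers in all 4 of its lists without mutation (31.1% of all genes), 2 in some (12.5%) and 4 in none (56.4%). HCF-1 bound 9 in all 5 lists (23.6%), 3 in some (25.1%) and 5 in none (51.3%). HDA-1 bound 9 in all 4 lists (25.5%), 3 in some (19.1%) and 5 in none (55.5%). All 3 factors bound 7 carriers in wild type, against 19.0% of all genes, 8 on L4440 (18.4%), 9 in glp-1(e2141) (28.5%) and 9 on glp-1 RNAi (27.5%). No factor bound 4 carriers in wild type, against 54.2% of genes, 3 on L4440 (56.1%), 4 in glp-1(e2141) (50.4%) and 2 on glp-1 RNAi (49.0%). Only slc-25A37 was bound in all 22 lists, and only ant-1.3 and ant-1.4 were bound in none, as were 40.3% of all genes. For slc-25A37 this depends on the window. In the list of HCF-1 in set-26(tm2467) on glp-1 RNAi, its only summit lay at -1860 bp (1.74-fold), next to the W02B12.11 start (-1845 bp). With a shorter window that left this summit out, slc-25A37 was not bound in that list. The share of all genes bound in all 22 lists was not counted. It can be no more than 6.16%, the share bound by HCF-1 in set-26(tm2467) on glp-1 RNAi. SET-26 and HDA-1 in glp-1(e2141) were called against the same HA background, so their peaks share a control. In wild type the labels give a first HA background replicate to each of the 2 profiles and name the second for neither, so those lists may share a part of their control.

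**Figure D2:**
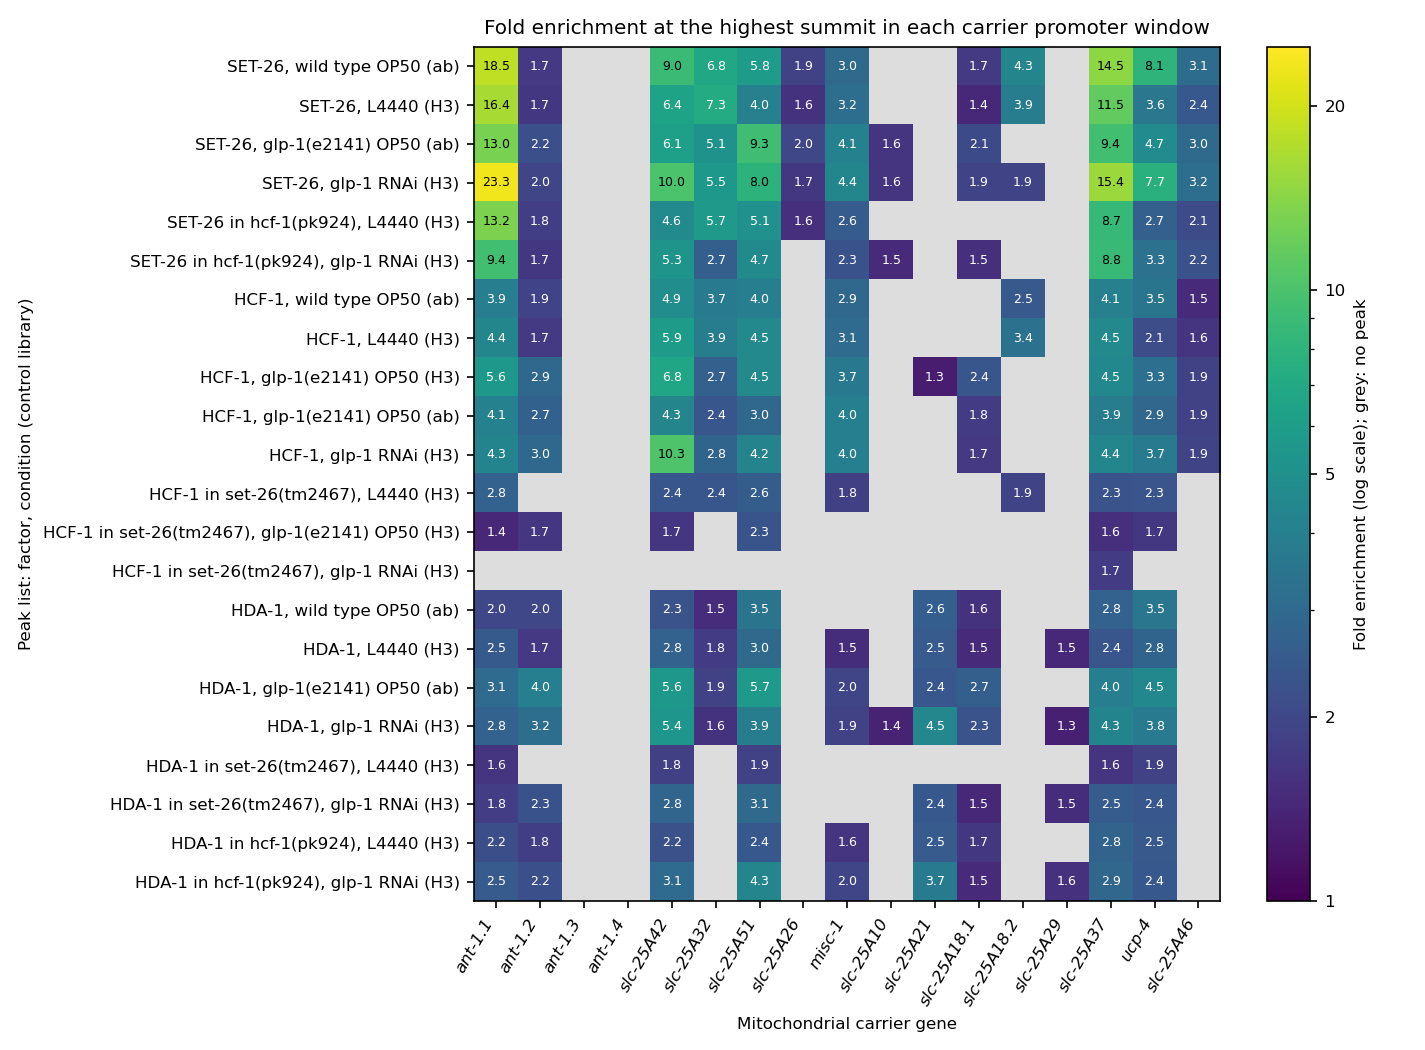
Fold enrichment at the highest summit in each carrier window (colour, log scale, value printed in the cell) is shown for the 22 peak lists (rows, factor, condition and control library) and the 17 carriers (columns), with grey where no peak overlapped the window. ant-1.1 and slc-25A37 carry the highest SET-26 values, 23.3 and 15.4 on glp-1 RNAi, the columns of ant-1.3 and ant-1.4 are grey throughout, and the row of HCF-1 in set-26(tm2467) on glp-1 RNAi holds 1 value.

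ant-1.1 (chrIII:13463163-13464652, plus strand), which encodes an ADP/ATP translocase, had the highest SET-26 enrichment of any carrier in all 6 SET-26 lists. SET-26 reached 18.5-fold in wild type (95% interval 17.6 to 19.3), 16.4-fold on L4440 (15.6 to 17.1), 13.02-fold in glp-1(e2141) (12.4 to 13.6) and 23.3-fold on glp-1 RNAi (22.2 to 24.3). These values exceeded those of 93.1% to 97.1% of all genes bound in the same lists. The highest summits in these lists lay 20 to 42 bp downstream of the annotated start, in the annotated 5′ UTR, and the −log10 q-value on glp-1 RNAi, 1914, was the highest of the 211 bound pairs of a carrier and a list. HCF-1 was lower at the same promoter, 3.94-fold in wild type, 4.39-fold on L4440, 4.11-fold in glp-1(e2141) against antibody background, 5.55-fold against H3 and 4.28-fold on glp-1 RNAi. HDA-1 was lower again, 1.99-fold, 2.50-fold, 3.09-fold and 2.76-fold in wild type, L4440, glp-1(e2141) and glp-1 RNAi. The start of T27E9.2 on the other strand lies at -579 bp and that of abcf-2 farther out.

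The sequence just before the start of ant-1.1 is shown because it is the carrier with the strongest SET-26 site, beside those of ant-1.3 and ant-1.4, the ADP/ATP translocase genes with no peak in any list. The ant-1.1 stretch (WBcel235, chrIII:13462913-13463162, plus strand) has 42.4% G+C, above that of 91.4% of all promoters of the same length of 250 bases, and 20 CG dinucleotides, in capitals, beside a median of 7 over all genes. The stretches of ant-1.3 (chrIV:9709306-9709555, minus strand) and ant-1.4 (chrIV:8460309-8460558, minus strand) have 11 CG dinucleotides each. Their capitals mark the runs of 12 or more bases that both contain, of 14 and 21 bases in the same order. The run of 14 bases was found in 3 promoters, the third that of K11H12.8, and the run of 21 bases in no promoter but these 2. All stretches are written 5′ to 3′ on the gene's strand from the RefSeq genome sequence.
ant-1.1: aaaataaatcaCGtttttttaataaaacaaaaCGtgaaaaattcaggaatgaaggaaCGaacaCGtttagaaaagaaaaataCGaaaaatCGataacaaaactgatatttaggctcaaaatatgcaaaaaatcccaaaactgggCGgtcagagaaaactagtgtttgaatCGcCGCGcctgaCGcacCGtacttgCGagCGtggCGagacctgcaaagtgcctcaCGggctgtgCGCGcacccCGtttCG
ant-1.3: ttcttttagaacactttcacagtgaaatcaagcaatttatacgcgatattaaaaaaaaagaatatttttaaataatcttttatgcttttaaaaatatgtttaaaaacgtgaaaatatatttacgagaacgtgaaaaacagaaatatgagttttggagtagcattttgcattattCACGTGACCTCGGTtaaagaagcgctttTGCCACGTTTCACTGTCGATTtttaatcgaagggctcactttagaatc
ant-1.4: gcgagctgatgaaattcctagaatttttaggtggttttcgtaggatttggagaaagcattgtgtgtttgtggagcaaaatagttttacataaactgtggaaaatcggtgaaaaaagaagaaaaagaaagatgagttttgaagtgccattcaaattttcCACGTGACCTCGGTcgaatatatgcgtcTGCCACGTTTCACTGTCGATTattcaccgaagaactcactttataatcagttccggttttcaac

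ant-1.3 (chrIV:9708168-9709305) and ant-1.4 (chrIV:8459178-8460308) both encode ADP/ATP translocases like ant-1.1. The peak nearest to the ant-1.3 window lay 572 to 7236 bp beyond its edge over the 22 lists, with a median of 1490.5 bp. For ant-1.4 the distance was 1661 to 26677 bp, with a median of 5931.5 bp. Of the words of 31 bases in the ant-1.3 window 99% occur once in the genome, and 98.4% of those in the ant-1.4 window, so reads there could be placed. The start of nhr-38, a nuclear receptor gene, lies within the ant-1.3 window at -882 bp, while no start of another gene lies in the ant-1.4 window.

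ant-1.2 (chrI:6730057-6730959, minus strand), the remaining ADP/ATP translocase gene, was bound in 19 of 22 lists, by SET-26 weakly. SET-26 was 1.71-fold in wild type, 1.69-fold on L4440, 2.19-fold in glp-1(e2141) and 1.97-fold on glp-1 RNAi, above the value of only 6.8% to 24.0% of the bound genes in each list. HCF-1 was 1.90-fold, 1.74-fold, 2.72-fold and 2.95-fold in the same order, with 2.94-fold in glp-1(e2141) against H3, and HDA-1 was 1.98-fold, 1.71-fold, 4.0-fold and 3.20-fold. The last 2 were above the medians of all genes bound in the same lists, 2.64-fold and 2.52-fold. For HCF-1 and HDA-1 both germline-less values were above both whole worm values. None of its highest summits lay near the gene itself. They lay at -850 to -1596 bp, and in every bound list the nearest start was that of lbp-5, a lipid binding protein gene whose start is at -1317 bp. Lower HDA-1 summits lay near the ant-1.2 start, at 13 bp in glp-1(e2141) (1.69-fold) and at -138 bp on glp-1 RNAi (1.59-fold).

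ucp-4 (chrV:9334298-9336671, plus strand), the only uncoupling protein gene of the worm, had SET-26 at 8.14-fold in wild type, 3.58-fold on L4440, 4.74-fold in glp-1(e2141) and 7.70-fold on glp-1 RNAi. HCF-1 was 3.48-fold, 2.15-fold, 2.89-fold and 3.72-fold in the same order, and 3.25-fold in glp-1(e2141) against H3. HDA-1 was 3.53-fold, 2.83-fold, 4.47-fold and 3.76-fold. L4440 gave the lowest value without mutation for each of the 3 factors, and the SET-26 interval on L4440 (3.28 to 3.89) did not overlap that in wild type (7.56 to 8.75), which was called against another control. The highest summits lay within 71 bp of the ucp-4 start in all but 1 of the 13 lists without mutation. A further summit, at -739 bp for HDA-1 on L4440 and in the 5′ UTR of acl-14, an acyltransferase gene that starts on the other strand at -667 bp, was the higher in that list. A lower summit between -800 and -700 bp was found in each of the other lists without mutation except HCF-1 on L4440. There SET-26 was 4.10-fold in wild type and 4.03-fold on glp-1 RNAi, and HDA-1 was 3.58-fold on glp-1 RNAi.

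slc-25A37 (chrII:11470003-11472016, minus strand), the gene for mitoferrin, which brings iron into mitochondria, had SET-26 summits at a distal site, -1841 to -1834 bp, and at a proximal site, -701 to -670 bp. Positions for the pair of sites were set after the values had been seen. SET-26 was higher at the distal site, with 14.5-fold in wild type, 11.5-fold on L4440, 9.38-fold in glp-1(e2141) and 15.4-fold on glp-1 RNAi, than at the proximal site, with 5.92-fold, 4.82-fold, 6.30-fold and 9.07-fold. The 95% intervals of the sites did not overlap in any of these 4 lists. HDA-1 was higher at the proximal site in germline-less worms, 3.95-fold against 2.95-fold in glp-1(e2141) and 4.28-fold against 3.12-fold on glp-1 RNAi, while in wild type (2.76 against 2.49) and on L4440 (2.37 against 2.23) the intervals overlapped. HCF-1 at the distal site stayed between 3.92-fold and 4.53-fold in all 5 lists, and at the proximal site it was 2.09-fold in wild type and 2.11-fold on L4440 but 3.05-fold, 4.04-fold and 4.41-fold in the 3 germline-less lists. The distal site lies at the start of W02B12.11 (-1845 bp), with metl-1 starting at -1559 bp. Both starts are nearer to it than that of slc-25A37, and which gene the site serves was not tested.

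The distal slc-25A37 site is shown because all 6 SET-26 lists, mutants included, placed the summit within the 9 bases in capitals, from -1841 to -1833 bp (WBcel235, chrII:11473727-11473860, minus strand, 47.8% G+C, cut at the neighbouring exons).
slc-25A37 distal site: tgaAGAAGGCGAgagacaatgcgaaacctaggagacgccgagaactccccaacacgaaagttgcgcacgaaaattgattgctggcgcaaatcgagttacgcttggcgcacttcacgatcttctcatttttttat

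slc-25A51 (chrIV:9337040-9338567, plus strand) is related to the human carrier that brings NAD into mitochondria. It too had a distal site, next to the start of T20D3.14 (-1131 bp), and a proximal site between -200 and -450 bp, again set after the values had been seen. SET-26 was about as high at both in wild type, 5.61-fold distal and 5.83-fold proximal, and the intervals overlapped. It was higher at the distal site on L4440 (4.04 against 3.12), in glp-1(e2141) (9.29 against 2.88) and on glp-1 RNAi (8.01 against 4.70). HCF-1 was higher at the proximal site in whole worms, 3.96 against 2.49 in wild type and 4.54 against 2.05 on L4440, and higher at the distal site in germline-less worms, 2.95 against 1.63 in glp-1(e2141), 4.53 against 1.51 there against H3, and 4.21 against 2.76 on glp-1 RNAi. Intervals did not overlap in any of these 5 HCF-1 lists. HDA-1 had the distal site in all 4 lists, at 3.46-fold, 3.05-fold, 5.72-fold and 3.87-fold in wild type, L4440, glp-1(e2141) and glp-1 RNAi, and the proximal site only in glp-1(e2141), at 1.38-fold.

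Both slc-25A51 sites are shown because the balance of HCF-1 between them differed between whole and germline-less worms. Capitals span the SET-26 summits of 6 lists, from -1056 to -1010 bp at the distal site (chrIV:9335910-9336124, 36.7% G+C) and from -330 to -219 bp at the proximal site (chrIV:9336610-9336859, 31.6% G+C), both on the plus strand of WBcel235.
slc-25A51 distal site: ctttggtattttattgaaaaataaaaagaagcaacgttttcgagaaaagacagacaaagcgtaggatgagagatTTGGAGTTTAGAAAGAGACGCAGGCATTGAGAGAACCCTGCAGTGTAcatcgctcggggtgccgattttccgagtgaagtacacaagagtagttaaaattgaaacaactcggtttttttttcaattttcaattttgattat
slc-25A51 proximal site: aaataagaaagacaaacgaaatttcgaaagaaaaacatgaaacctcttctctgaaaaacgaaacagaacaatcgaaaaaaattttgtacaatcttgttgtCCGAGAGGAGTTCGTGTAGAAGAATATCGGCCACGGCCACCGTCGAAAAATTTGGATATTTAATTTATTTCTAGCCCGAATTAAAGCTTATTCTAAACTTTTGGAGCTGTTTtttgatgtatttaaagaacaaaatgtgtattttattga

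**Figure D3:**
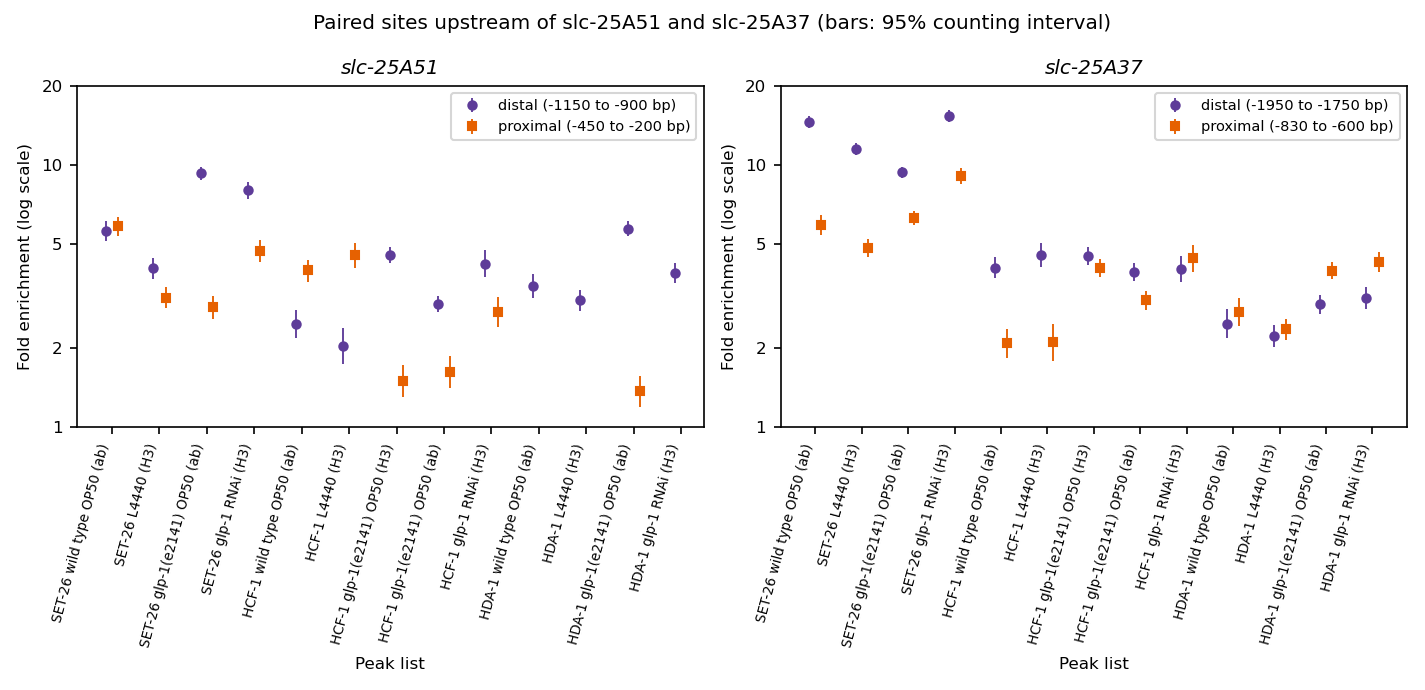
Fold enrichment (vertical axis, log scale) at the distal and the proximal site of slc-25A51 (left) and slc-25A37 (right) is plotted for the 13 lists without mutation, with 95% counting intervals as bars and no point where a site had no summit. At slc-25A51 the HCF-1 points change order between whole worms (proximal 3.96 and 4.54) and germline-less worms (proximal 1.51 to 2.76), and at slc-25A37 the SET-26 distal points are the higher in all 4 lists.

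The other carriers of cofactors were slc-25A42, slc-25A32 and slc-25A26, whose human relatives carry coenzyme A, folate and S-adenosylmethionine. slc-25A42 (chrI:8612725-8615193, minus strand) was bound in 21 of 22 lists with its highest summits 117 to 244 bp downstream of its start. It had the highest HCF-1 value of any carrier in each of the 5 HCF-1 lists without mutation, 4.86-fold in wild type, 5.87-fold on L4440, 4.33-fold in glp-1(e2141) against antibody background, 6.76-fold against H3 and 10.3-fold on glp-1 RNAi, and the last exceeded 98.1% of bound genes. SET-26 there was 8.97-fold, 6.44-fold, 6.14-fold and 9.99-fold in wild type, L4440, glp-1(e2141) and glp-1 RNAi. HDA-1 was 2.29-fold and 2.77-fold in the whole worm lists and 5.57-fold and 5.44-fold in the germline-less lists.

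slc-25A32 (chrII:8276298-8277621, plus strand) starts 67 bp from gei-14 on the other strand, and the highest summit of each list without mutation lay between -31 and -152 bp, over the shared start region. Lower summits were also found, such as SET-26 on L4440 at -659 bp (2.33-fold) and HCF-1 on glp-1 RNAi at 75 bp (2.76-fold). At the highest summit SET-26 was 6.77-fold, 7.25-fold, 5.14-fold and 5.54-fold in wild type, L4440, glp-1(e2141) and glp-1 RNAi. HCF-1 was 3.72-fold and 3.91-fold in whole worms and 2.37-fold to 2.84-fold in the 3 germline-less lists, so for this carrier the whole worm values were the higher ones. HDA-1 was low, 1.51-fold to 1.90-fold. slc-25A26 (chrIV:8930442-8932791, plus strand) was bound by SET-26 alone, at 1.89-fold, 1.61-fold, 1.99-fold and 1.68-fold in the same order, with summits scattered from -1959 to 55 bp.

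misc-1 (chrII:286625-288703, plus strand) encodes the 2-oxoglutarate/malate carrier, part of the shuttle that moves reducing power into mitochondria. SET-26 was 3.05-fold in wild type, 3.19-fold on L4440, 4.11-fold in glp-1(e2141) and 4.39-fold on glp-1 RNAi, and HCF-1 was 2.95-fold, 3.09-fold, 4.03-fold and 4.01-fold in the same order. HDA-1 had no peak in wild type and was 1.52-fold on L4440, 1.97-fold in glp-1(e2141) and 1.87-fold on glp-1 RNAi. The highest HCF-1 summits lay at -667 to -694 bp and the highest SET-26 summits at -692 to -708 bp except in wild type (-223 bp), while the highest HDA-1 summits lay at -308 to -415 bp. Each factor had lower summits at the other place as well, such as HDA-1 on glp-1 RNAi at -653 bp with 1.82-fold and HCF-1 on glp-1 RNAi at -420 bp with 3.65-fold. The start of B0432.10 lies on the other strand at -350 bp. slc-25A10 (chrX:6723743-6725668, minus strand), the dicarboxylate carrier gene, had only weak peaks, SET-26 at 1.64-fold in glp-1(e2141) and 1.63-fold on glp-1 RNAi and HDA-1 at 1.36-fold on glp-1 RNAi.

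slc-25A21 (chrX:16189856-16195007, plus strand) is the gene for the carrier of 2-oxoadipate and related acids from lysine and tryptophan breakdown. It was held nearly by HDA-1 alone. HDA-1 was 2.63-fold in wild type, 2.52-fold on L4440, 2.39-fold in glp-1(e2141) and 4.45-fold on glp-1 RNAi. SET-26 had no peak in any of its 6 lists, and HCF-1 had 1 peak in 8 lists, 1.28-fold in glp-1(e2141) against H3, whose −log10 q-value of 2.29 was the lowest of the 211 bound pairs. No start of another gene lies in the window, and 7 HDA-1 lists placed the summit between -448 and -403 bp, marked by capitals in the stretch shown here as the HDA-1 site without SET-26 (WBcel235, chrX:16189296-16189545, plus strand, 38.0% G+C).
slc-25A21: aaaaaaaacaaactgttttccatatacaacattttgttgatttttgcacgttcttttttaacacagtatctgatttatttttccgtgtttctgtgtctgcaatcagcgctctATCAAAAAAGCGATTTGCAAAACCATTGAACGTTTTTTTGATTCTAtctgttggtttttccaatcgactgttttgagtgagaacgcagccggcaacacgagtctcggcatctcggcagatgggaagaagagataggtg

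Of the carriers of amino acids, slc-25A29 (chrV:14653489-14658175, minus strand), related to a human carrier of basic amino acids, was bound by HDA-1 alone, at 1.45-fold on L4440 and 1.33-fold on glp-1 RNAi. slc-25A18.1 (chrX:15002034-15003941, minus strand) and slc-25A18.2 (chrIV:7475041-7476182, plus strand) are both related to the human glutamate carrier SLC25A18 and differed throughout. slc-25A18.1 was bound weakly by SET-26 (1.43-fold to 2.05-fold) and HDA-1 (1.46-fold to 2.65-fold) in all 8 of their lists without mutation, and by HCF-1 in the 3 germline-less lists alone (1.71-fold to 2.37-fold). slc-25A18.2 was bound by SET-26 at 4.31-fold in wild type, 3.93-fold on L4440 and 1.94-fold on glp-1 RNAi and by HCF-1 at 2.45-fold in wild type and 3.37-fold on L4440, and by HDA-1 in no list. Its highest summits at -1454 to -1500 bp lay next to the start of F55G1.6 (-1524 bp). slc-25A46 (chrI:13428913-13434611, plus strand), whose human relative sits in the outer membrane, had SET-26 at 2.42-fold to 3.19-fold and HCF-1 at 1.46-fold to 1.92-fold and no HDA-1, but only 79.0% of the 31-base words of its window are unique in the genome. Its highest HCF-1 summits lay at -1228 bp in wild type and -1647 bp on L4440, but at -265 to -24 bp in the germline-less lists.

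Over all lists, 211 of the 374 pairs of a carrier and a list were bound, or 56.4%, beside 31.4% of the pairs of any gene and a list. In 118 of them, or 55.9%, the highest summit lay within 500 bp of the carrier's start, beside 58.3% for all bound genes with a summit in the window. In 100, or 47.4%, the nearest annotated start was that of another gene, beside 32.3%. The same carriers recur over the lists, so these pairs are not independent. Many worm transcripts are trans-spliced, so an annotated start can lie downstream of the place where transcription begins. No peak was shared by 2 carriers.

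**Figure D4:**
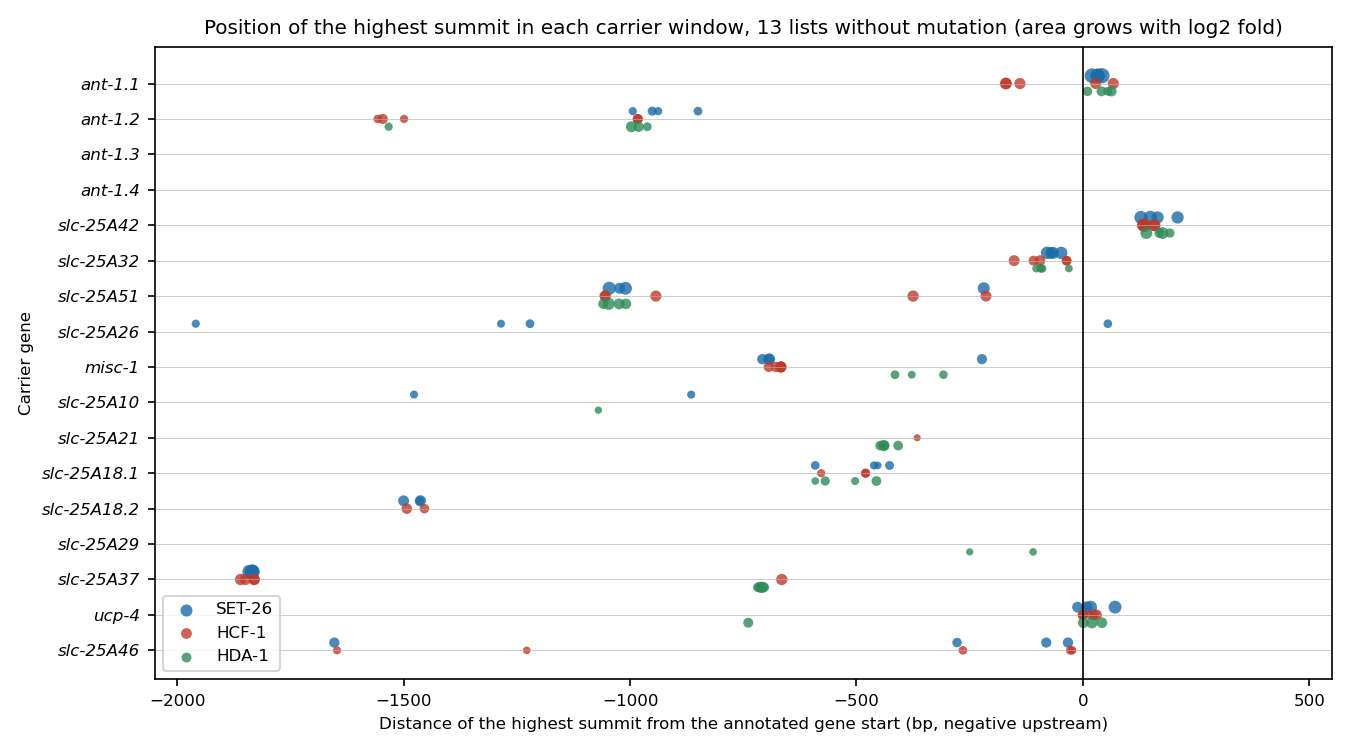
The distance of the highest summit from the annotated gene start (horizontal axis, bp, negative upstream) is plotted for each carrier (rows) in the 13 lists without mutation, coloured by factor, with a point area that grows with log2 fold. Points of ant-1.1, slc-25A42, slc-25A32 and most of ucp-4 sit close to the start, those of ant-1.2 and slc-25A18.2 sit far upstream next to other genes, and in slc-25A37 and slc-25A51 they fall at 2 places.

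Whole worms were next compared with germline-less worms. In such bulk samples, fewer cells of a type and less binding per cell cannot be told apart. Of the 6 comparisons, wild type with glp-1(e2141) on OP50 and L4440 with glp-1 RNAi for each factor, at most 1 carrier was bound with the germline alone and 1 without it in each. For SET-26 on OP50, slc-25A18.2 was bound in wild type alone (8.59% of the genes bound in either list) and slc-25A10 in glp-1(e2141) alone (13.4%), and on RNAi bacteria no carrier was bound on L4440 alone (3.69% of genes) and slc-25A10 on glp-1 RNAi alone (13.9%). For HCF-1, slc-25A18.2 was bound in whole worms alone and slc-25A18.1 in germline-less worms alone, both on OP50 (11.2% and 25.2% of genes) and on RNAi bacteria (5.06% and 26.6%). For HDA-1 no carrier was bound in whole worms alone (2.5% of genes on OP50, 2.49% on RNAi bacteria), while misc-1 was bound in glp-1(e2141) alone (28.0%) and slc-25A10 on glp-1 RNAi alone (27.9%).

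slc-25A10 and slc-25A18.1, which gained SET-26 or HCF-1 peaks without the germline, both lie on the X chromosome. HCF-1 bound 8.8% of all genes on the X chromosome in wild type and 24.7% in glp-1(e2141), beside 34.9% and 39.2% of genes on autosomes, and SET-26 bound 16.3% and 25.2% of X genes. For carriers bound in both kinds of worm, the median ratio of the germline-less to the whole worm fold on OP50 was 1.55 for HDA-1, 0.98 for SET-26 and 0.97 for HCF-1, beside 1.28, 0.97 and 1.2 for all genes. On RNAi bacteria it was 1.33, 1.35 and 1.18 in the same order, beside 1.39, 1.47 and 1.24. As a check of the labels, 20 genes of the germline (such as glh-1 and pgl-1) were followed in the same lists. In glp-1(e2141) the number bound was 7 for SET-26 against 19 in wild type and 3 for HCF-1 against 19, but on glp-1 RNAi it was 13 against 17 on L4440 for SET-26 and 16 against 18 for HCF-1, all of the 13 and the 16 bound on L4440 too. At the bound germline genes the median fold was 2.34 on glp-1 RNAi against 4.32 on L4440 for SET-26 and 2.29 against 3.72 for HCF-1. For HDA-1 the number bound was 3 against 6 on OP50 and 5 against 7 on RNAi bacteria.

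HCF-1 was followed in the set-26(tm2467) mutant, to ask whether its peaks at the carriers were present without SET-26. Each fold is that of the highest summit in the window, which was more than 200 bp apart in control and mutant for 13 of the 69 carriers with a summit in both over all 9 mutant comparisons. On glp-1 RNAi, 9 of the 10 carriers bound by HCF-1 in control worms had no peak in the mutant, beside 84.6% of all genes bound in control worms, and the mutant list bound 1 carrier in all (6.16% of genes). slc-25A42 lost a peak of 10.3-fold and ucp-4 a peak of 3.72-fold. The exception, slc-25A37, was 4.41-fold at the proximal site in control and 1.74-fold at the distal site in the mutant (interval 1.46 to 2.06, −log10 q-value 6.66). The distal site was 4.02-fold in control, and the proximal site had no summit in the mutant. With a shorter window that left out the distal site, 10 of 10 carriers had no mutant peak, beside 86.5% of genes. Of all genes with a summit in both lists, 98.4% were lower in the mutant, 97.2% with no overlap of intervals. In glp-1(e2141), 5 of 11 carriers had no mutant peak (57.7% of genes), among them misc-1 (3.68-fold in control) and slc-25A32 (2.69-fold), and the mutant list bound 6 carriers (20.6% of genes). All 6 were lower in the mutant (97.6% of genes), with no overlap of intervals (91.4%). slc-25A42 was 6.76-fold in control and 1.66-fold in the mutant and ant-1.1 5.55-fold and 1.44-fold, the lowest ratios of the 6, while slc-25A51 was 4.53-fold and 2.31-fold and ucp-4 3.25-fold and 1.68-fold.

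On L4440, where the germline is present, fewer HCF-1 peaks were missing. Of 10 carriers, 2 had no mutant peak (31.7% of genes), ant-1.2 (1.74-fold in control) and slc-25A46 (1.64-fold), and 8 were bound in the mutant (20.3% of genes). Of these 8, 7 were lower in the mutant with no overlap of intervals (98.8% of genes were lower, 84.0% with no overlap). slc-25A42 was 5.87-fold in control and 2.37-fold in the mutant, ant-1.1 4.39-fold and 2.75-fold, and slc-25A51 4.54-fold and 2.57-fold. ucp-4 was the exception, at 2.15-fold (1.89 to 2.43) and 2.34-fold (2.04 to 2.66). The median ratio of mutant to control fold was 0.58 for the carriers and 0.62 for all genes on L4440, and 0.43 and 0.39 in glp-1(e2141). The mutant HCF-1 libraries held 1.19 to 1.28 times as many tags as the control libraries in these 3 comparisons.

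At the paired sites of slc-25A51, HCF-1 in the set-26 mutant had the proximal site alone on L4440 (2.57-fold), the distal site alone in glp-1(e2141) (2.31-fold) and neither on glp-1 RNAi. In each of the first 2 this was the site that was the higher in control worms of the same kind. At slc-25A37 the distal site had an HCF-1 summit in all 3 mutant lists, at 2.28-fold, 1.57-fold and 1.74-fold on L4440, in glp-1(e2141) and on glp-1 RNAi, and the proximal site only in glp-1(e2141), at 1.55-fold.

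SET-26 was followed in the hcf-1(pk924) mutant for the converse question. Most carriers kept a SET-26 peak. On glp-1 RNAi 2 of 13 had none in the mutant (12.3% of genes), slc-25A18.2 and slc-25A26, and 11 were bound (35.7% of genes). For slc-25A26 a mutant peak did overlap the control peak outside the window. All 11 were lower in the mutant (93.6% of genes), 8 with no overlap of intervals (78.9%). ant-1.1 was 23.3-fold in control and 9.44-fold in the mutant, slc-25A37 15.4-fold and 8.80-fold, slc-25A42 9.99-fold and 5.27-fold, ucp-4 7.70-fold and 3.31-fold, and slc-25A32 5.54-fold and 2.66-fold. The median ratio was 0.57 for the carriers and 0.63 for all genes, and the mutant library held 1.55 times as many tags as the control library.

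On L4440 the SET-26 differences were smaller. Of 12 carriers, 2 had no mutant peak (5.94% of genes), slc-25A18.2 and slc-25A18.1, and 10 were bound in the mutant (35.3% of genes). Of these 10, 8 were lower (58.0% of genes), 6 with no overlap of intervals (27.9%), and the median ratio was 0.80 beside 0.96 for all genes. ant-1.1 was 16.4-fold in control and 13.2-fold in the mutant, slc-25A37 11.5-fold and 8.67-fold, and slc-25A42 6.44-fold and 4.64-fold. slc-25A51 went the other way, from 4.04-fold (3.69 to 4.42) to 5.10-fold (4.68 to 5.56) with no overlap of intervals. slc-25A18.2 stood apart from the rest, since its SET-26 peak was 3.93-fold on L4440 with a −log10 q-value of 126, yet the nearest SET-26 peak in the mutant lay 1077 bp beyond the window on L4440 and 1579 bp on glp-1 RNAi. The HCF-1 peak at the same place remained in the set-26 mutant on L4440, at 1.93-fold against 3.37-fold.

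HDA-1 was followed in both mutants, which share the same control lists. In hcf-1(pk924) on glp-1 RNAi 2 of 12 carriers had no mutant peak (20.8% of genes), slc-25A32 and slc-25A10, and 10 were bound (33.7% of genes). Of these 10, 7 were lower (81.3% of genes), 5 with no overlap of intervals (45.7%), with a median ratio of 0.76 beside 0.82 for all genes. slc-25A51 was 3.87-fold in control and 4.31-fold in the mutant and slc-25A21 4.45-fold and 3.74-fold, with overlapping intervals, whereas slc-25A42 was 5.44-fold and 3.09-fold. On L4440 2 of 11 had no mutant peak (16.8% of genes), slc-25A32 and slc-25A29, 9 were bound (26.9% of genes) and 5 of the 9 were lower (70.7% of genes), 2 with no overlap of intervals (27.9%), with a median ratio of 1.00 beside 0.91. The other 7 overlapped, but this depends on the site for ant-1.2, ucp-4 and slc-25A37. At ant-1.2 the highest summit lay at -1533 bp in control (1.71-fold) and at -952 bp in the mutant (1.83-fold). No mutant peak overlapped that control peak. At ucp-4 the highest summit lay at -739 bp in control (2.83-fold) and at -20 bp in the mutant (2.45-fold), and at the distal place alone it was 2.83-fold (2.58 to 3.10) and 1.84-fold (1.66 to 2.02). At slc-25A37 the proximal site was 2.37-fold and 2.80-fold, with overlapping intervals, and the distal site 2.23-fold (2.02 to 2.46) and 1.49-fold (1.33 to 1.67).

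In set-26(tm2467) on glp-1 RNAi 3 of 12 carriers had no HDA-1 peak (28.1% of genes), misc-1, slc-25A32 and slc-25A10, and 9 were bound (30.1% of genes). Of these 9, 8 were lower with no overlap of intervals (90.9% of genes were lower, 67.5% with no overlap), and the median ratio was 0.64 beside 0.73. slc-25A42 was 5.44-fold in control and 2.84-fold in the mutant, and slc-25A51 3.87-fold and 3.06-fold. slc-25A21, which SET-26 bound in no list, was 4.45-fold and 2.42-fold. On L4440 6 of 11 had no mutant peak (55.9% of genes), with slc-25A21 (2.52-fold in control) and slc-25A32 (1.76-fold) the highest of them by −log10 q-value, and 5 were bound (13.5% of genes). All 5 were lower with no overlap of intervals (96.6% of genes were lower, 84.4% with no overlap), such as slc-25A42 at 2.77-fold and 1.83-fold. ucp-4 was 2.83-fold at -739 bp in control and 1.86-fold at -11 bp in the mutant, and at the proximal place alone it was 2.59-fold (2.37 to 2.82) and 1.86-fold (1.66 to 2.08). This mutant list held 3741 peaks beside 8253 in control, with 0.90 times as many tags. In none of the 9 mutant comparisons was a carrier bound in the mutant alone. The share of all genes bound in the mutant alone was not counted, so this cannot be read as a trait of the carriers.

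Over the 9 comparisons, 33 of 102 carriers bound in control worms had no mutant peak, or 32.4%, a share near the 35.5% of all control-bound genes. The same carriers and some control lists recur among the 102, and the comparisons ran from 2 of 13 to 9 of 10.

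**Figure D5:**
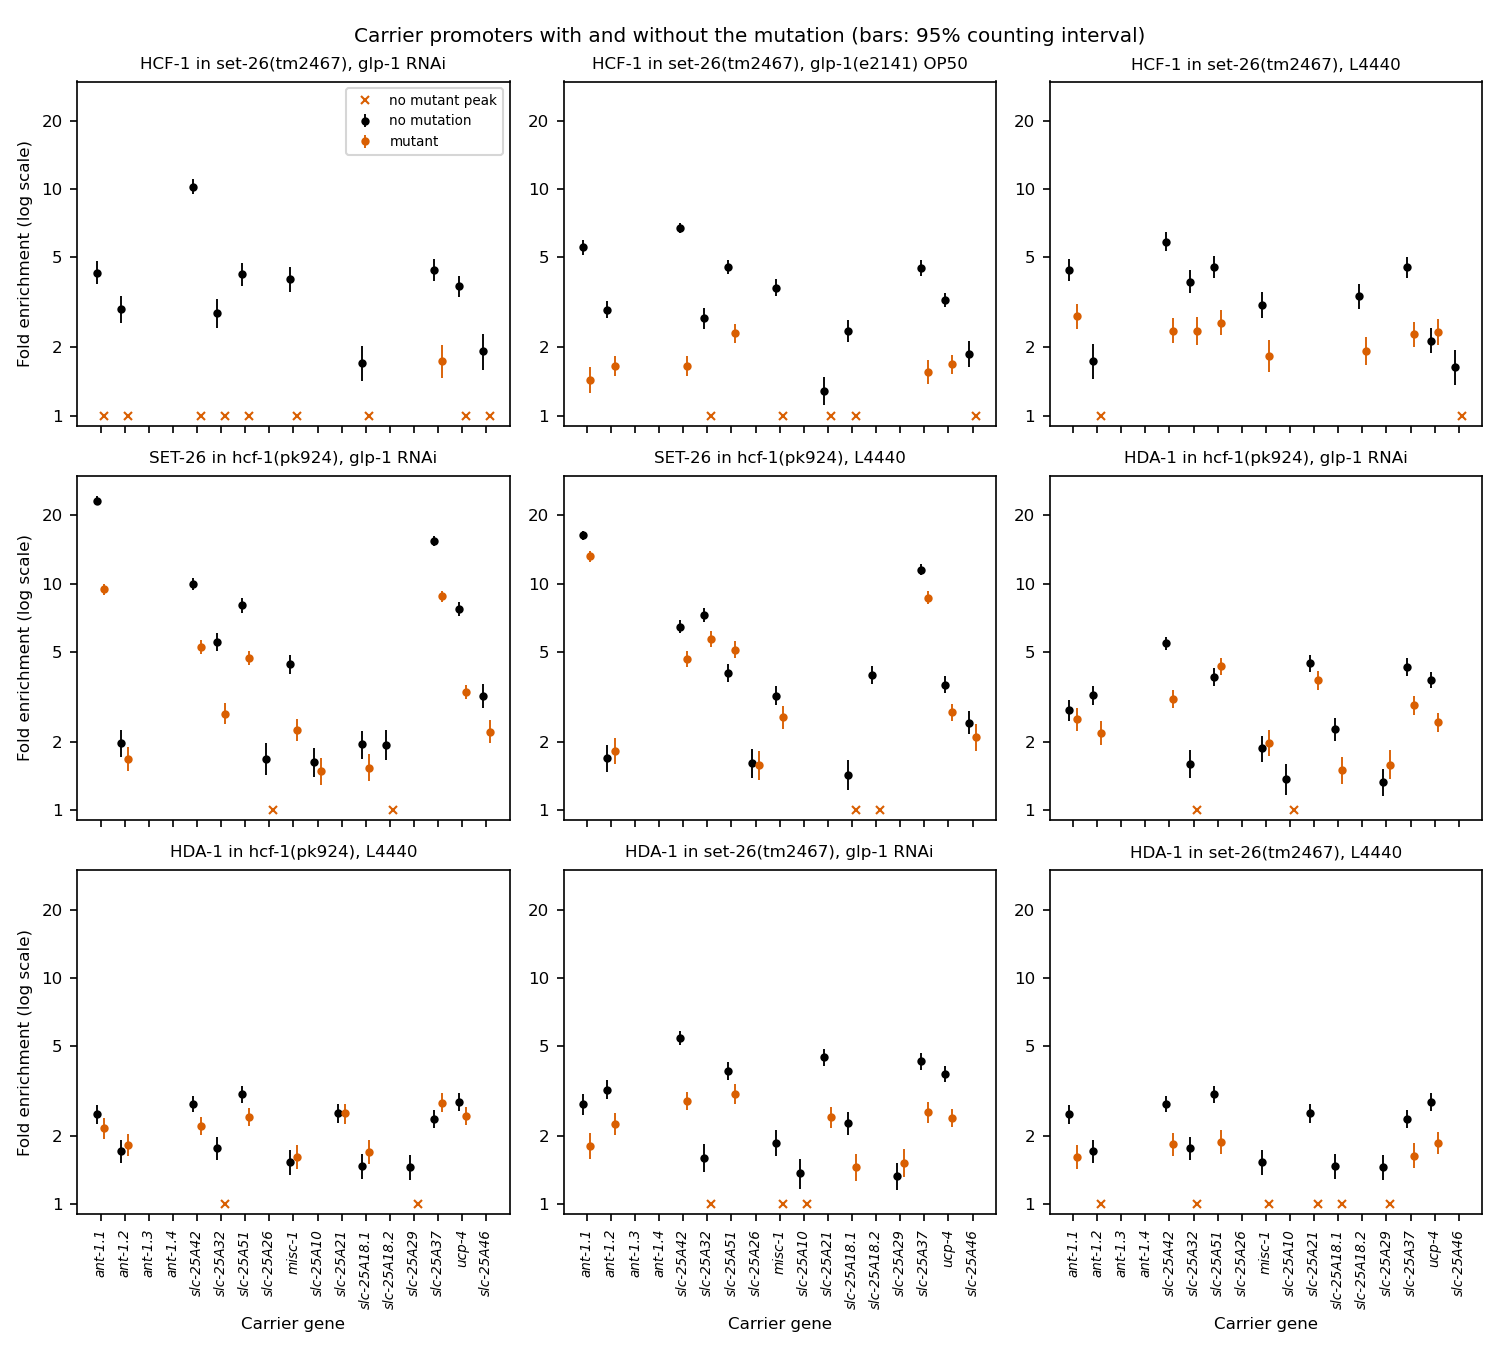
Fold enrichment at the highest summit (vertical axis, log scale) is plotted for each carrier (horizontal axis) in the 9 comparisons, with control worms in black, mutants in orange, 95% counting intervals as bars and an orange cross at the foot of the panel where the mutant had no peak. In the first panel, HCF-1 in set-26(tm2467) on glp-1 RNAi, 9 of 10 carriers have a cross, while in the SET-26 panels 2 carriers each have one and ant-1.1 stays the highest at 9.44 and 13.2.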

How the data were processed

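CUT&RUN of HCF-1, HDA-1 and SET-26 was processed by the authors with Trim Galore 0.6.5, Bowtie2 2.4.3 (WBcel235, duplicate and multi-mapped reads kept), SAMtools merging of the replicates of each group and MACS2 2.1.4 peak calling at a q-value of 0.01 with fragments of 200 bp, per the file headers, the methods and the submitters' processing notes. The deposited tables give for each summit the authors' fragment pileup, a signal scaled so that the larger library matches the smaller, the authors' fold enrichment over the control library, a ratio, and the authors' −log10 q-value. Pileups were whole numbers in 10 lists and scaled in 12. The headers give the tags of the merged libraries, 27.1 to 85.6 M per list.

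Entries with the same start and end were counted as 1 peak and joined to the gene starts of Ensembl with Python 3.11.15, pandas 2.3.3, numpy 2.4.6 and scipy 1.17.1. Sequences, the uniqueness of 31-base words and promoters of 250 bases were read from the RefSeq genome, whose chromosomes held all peaks and gene ends. RefSeq proteins and promoter tables were not used here. Intervals are exact (Poisson for pileups, Clopper-Pearson for shares, 95%) and cover counting error only. Duplicates were kept, so the fragments at a summit may not be independent and the Poisson intervals may be too narrow. Scripts were checked on simulated data. With merged replicates no test and no leaving out of a replicate was possible, and the study's test of differential binding, which needs the reads of each replicate, was not repeated. The second format of each peak list was not used.

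Members and comparison lists were chosen with earlier results of these data known. Values were given for ant-1.1 to ant-1.4, ucp-4 and misc-1, for the 2 carriers with the highest −log10 q-value in each list against antibody background, for the 2 highest without a mutant peak and the 2 highest with one in each mutant comparison, and for carriers bound in no list, and the other members were added so that each is accounted for. Alternatives were other windows, overlaps, q-values, uniqueness limits, controls and member rules.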

Additional observations from a re-analysis of the deposited data

How the results depend on the processing

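No paired analysis was possible because the peaks were called on merged replicates, and for the same reason no replicate could be left out. The share of carriers bound in the 6 lists against antibody background, 61.8%, ranged from 52.9% to 62.7% over its alternatives. The share of control-bound carriers without a mutant peak, 32.4%, ranged from 30.2% to 42.4%, and moved only with a window of 500 bp on either side of the start (42.4%, 36 of 85, beside 38.9% of genes). With that window, carriers bound with the germline alone over the 6 comparisons went from 3 to 5. Those bound only without the germline went from 6 to 12. A window of intermediate length gave 4 and 9, and a −log10 q-value of at least 5 in both lists gave 4 and 8. The remaining alternatives left both counts unchanged. All alternatives for the germline counts were chosen after seeing the data. The matching shares of all genes were not counted, so these shifts cannot be read as a trait of the carriers. Leaving out slc-25A37 and slc-25A51, known by RefSeq symbol alone, also an alternative added later, gave 56.7% and 38.1%. Counting intervals follow the number of fragments at a summit, and differences within them were not detectable at this depth.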

Other observations

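The sequence before the carrier starts was described beside that of all genes. The 250 bases before the start had a median G+C of 29.6%, beside 33.2% for all genes, and a median of 7 CG dinucleotides, the same as all genes. The 5 motifs were searched on both strands of these 250 bases alone, not at summits farther out, and none of them contains another. The letters TGATAA, known from GATA factors, were found in 3 carriers and in 26.8% of all promoters. The letters GTAAACA, known from FOXO factors, were found in 2 carriers, slc-25A10 and slc-25A18.1, and in 4.36% of all promoters. The repeat GAGAGA was found in 2 carriers (19.1% of all promoters). The word CTGCGTCT was found in these bases in misc-1 alone among carriers (3.31%). Outside them, its reverse complement AGACGCAG lies within the capitals of the slc-25A51 distal site shown above. The word TATAAA was found in 6 carriers (35.2%). At 46%, the promoter of slc-25A29, which SET-26 bound in no list, had a higher G+C than that of ant-1.1 (42.4%).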
